A study of Mus musculus with 2 samples.

Results

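Aminoacyl-tRNA synthetases are described here as measured by RNA sequencing of mouse gastrocnemius, a calf muscle. The members are 36 genes chosen by name from the 34745 genes of the deposited table: 20 cytosolic enzymes and 16 mitochondrial enzymes, the latter recognised by a name that ends in 2. Each group is 1 library of total RNA. The control was muscle of TECRLflox/flox mice, with the floxed Tecrl allele that both groups share. The other library, called the scko library here, was muscle of TECRLscko mice. These came from a cross of Pax7-Cre knock-in mice with TECRLflox/flox mice, which is meant to delete Tecrl in satellite cells, the resident stem cells of muscle. The labels give no age, sex or number of animals behind a library, and do not say whether the control mice carried Cre. The library is whole muscle, of which satellite cells are a small part, and whether fibers that formed from Pax7-expressing cells also carry the deletion was not tested. With 1 library per group there was no spread between animals to measure, so no p-value is given and every interval below covers counting error only.

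An aminoacyl-tRNA synthetase joins an amino acid to its matching tRNA and so sets the reading of the genetic code. The cytosolic enzymes serve translation of nuclear messages, and the mitochondrial enzymes, also encoded in the nucleus, serve translation of the few proteins encoded by the mitochondrial genome. In mammals 8 of the cytosolic enzymes sit in a multi-synthetase complex, held together by scaffold proteins, and the others are free. Gars and Kars each encode the cytosolic and the mitochondrial enzyme for their amino acid, and mitochondria make glutaminyl-tRNA by a detour through an amidotransferase. Several cytosolic synthetase genes are known targets of ATF4, the transcription factor of the amino acid response, which acts at C/EBP-ATF response elements.

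The core letters of that element were found in some, but not most, of the cytosolic promoters searched and in none of the mitochondrial ones. RefSeq promoter windows (GRCm38.p6, 250 bases before to 50 after the annotated start) were matched for 27 of the 36 genes, 26 by symbol and Mars through its RefSeq symbol Mars1 at identical coordinates. The letters TGATGNAA, searched on both strands with no other motif, stood in the windows of 5 of 13 cytosolic genes and 0 of 14 mitochondrial genes. Of all 32851 windows in the table, 3.97% held them, a share that 0 of 14 lies near. The stretches around the matches are shown because the results below set these 5 synthetases against the other genes of the amino acid response. Chac1, an ATF4 target whose product degrades glutathione, is shown beside them because its level differed most among those genes. Capitals mark the match, all sequences run 5′ to 3′ on the gene's strand, and a match is only a match of letters.
Aars, plus strand, chr8:111033704-111033884, matches 112 bases before and 10 bases after the start: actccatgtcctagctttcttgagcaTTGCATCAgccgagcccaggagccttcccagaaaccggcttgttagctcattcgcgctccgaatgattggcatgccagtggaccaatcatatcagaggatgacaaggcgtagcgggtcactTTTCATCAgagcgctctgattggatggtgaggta
Gars, plus strand, chr6:55037945-55038004, match 30 bases before the start: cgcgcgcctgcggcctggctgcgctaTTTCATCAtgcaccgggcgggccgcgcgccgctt
Iars, plus strand, chr13:49682111-49682170, match 8 bases after the start: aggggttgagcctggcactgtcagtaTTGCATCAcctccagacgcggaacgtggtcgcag
Tars, minus strand, chr15:11399640-11399699, match 15 bases before the start: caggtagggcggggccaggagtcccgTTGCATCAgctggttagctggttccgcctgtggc
Yars, plus strand, chr4:129189880-129189939, match 4 bases after the start: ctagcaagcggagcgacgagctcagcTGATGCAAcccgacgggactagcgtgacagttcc
Chac1, plus strand, chr2:119351023-119351082, match 193 bases before the start: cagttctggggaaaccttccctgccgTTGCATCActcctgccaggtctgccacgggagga

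The libraries held 19281017 counts (control) and 16946124 counts (scko). The muscle fiber markers were abundant in both, with a summed level over 11 genes of 117570 CPM (counts per 1e6 library counts, scaled between libraries with TMM factors) in the control and 108263 CPM in the scko library. Their median log2 ratio was 0.33 all the same, with 4 of the 11 at least 1.5-fold higher and 0 lower. Over all genes compared these shares were 9.24% and 3.88%. Tecrl itself had 3 and 4 counts, so its deletion could not be checked. Marker levels of some other cells differed between the libraries. Summed over their lists, 6 adipocyte markers went from 41.6 CPM in the control to 19.0 CPM and 4 tendon markers from 53.6 to 84.1 CPM. The 7 leukocyte markers went from 46.4 to 38.1 CPM, with 1 at least 1.5-fold higher and 1 lower. The 4 Schwann cell markers went from 82.6 to 70.6 CPM, with 1 at least 1.5-fold higher and 0 lower. The sums were closer for 4 endothelial (413 and 408 CPM), 4 fibroblast (1817 and 1694 CPM) and 4 erythroid markers (218 and 237 CPM). No marker was at 0 in both libraries. The 5 satellite cell markers summed to 19.9 and 19.0 CPM but went both ways, with a median log2 ratio of -0.42, 2 of 5 at least 1.5-fold lower, and Pax7 at 58 and 76 counts (ratio 1.56, 1.10 to 2.24). The part of these cell types in the synthetase values was not tested, and in bulk tissue fewer cells of a type and less RNA per cell cannot be told apart.

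The synthetases as a family differed little between the libraries, with a small number of exceptions in each compartment. All 36 genes passed the filter of a mean of 1 CPM or more, on counts from 40 to 3100. Differences are given as log2 ratios, TECRLscko over control, of CPM plus 0.5. The median log2 ratio was -0.09 over the 36 genes, with quartiles of -0.18 and 0.03, against -0.02 with quartiles of -0.21 and 0.24 over the 12559 genes compared. Of the 36 synthetases 30 lay within 0.32 of 0 on the log2 scale, as did 64.7% of all genes compared and 67.7% of the 9700 genes whose mean reached 5 CPM. Beyond that limit 2 were higher (20.2% of all genes were) and 4 lower (15.1% of all genes were). Below the control by any amount were 25 of the 36, against 51.8% of all genes. A gene is counted as different from 1.5-fold: 1 synthetase was higher (9.24% of all genes were) and 2 were lower (3.88% of all genes were), and none reached 2-fold in either direction (2.28% of all genes did on the higher side and 0.796% on the lower). The exact 95% counting interval of the ratio lay above 1 for 4 synthetases (24.1% of all genes) and below 1 for 10 (23.8% of all genes). Over all genes, 1161 were at least 1.5-fold higher and 487 lower, a split that was 968 and 658 with total-count scaling, 392 and 352 among the 9503 genes with a mean FPKM of at least 1, and 556 and 485 once the log2 ratios were corrected for the length and GC content of transcripts. Together the synthetases took 0.173% of the unscaled counts in the control and 0.164% in the scko library, with 95% Wilson intervals of 0.171 to 0.175 and 0.162 to 0.166. With TMM scaling the ratio of their summed levels was 0.991 (0.976 to 1.007), an interval that includes 1.

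**Figure D1:**
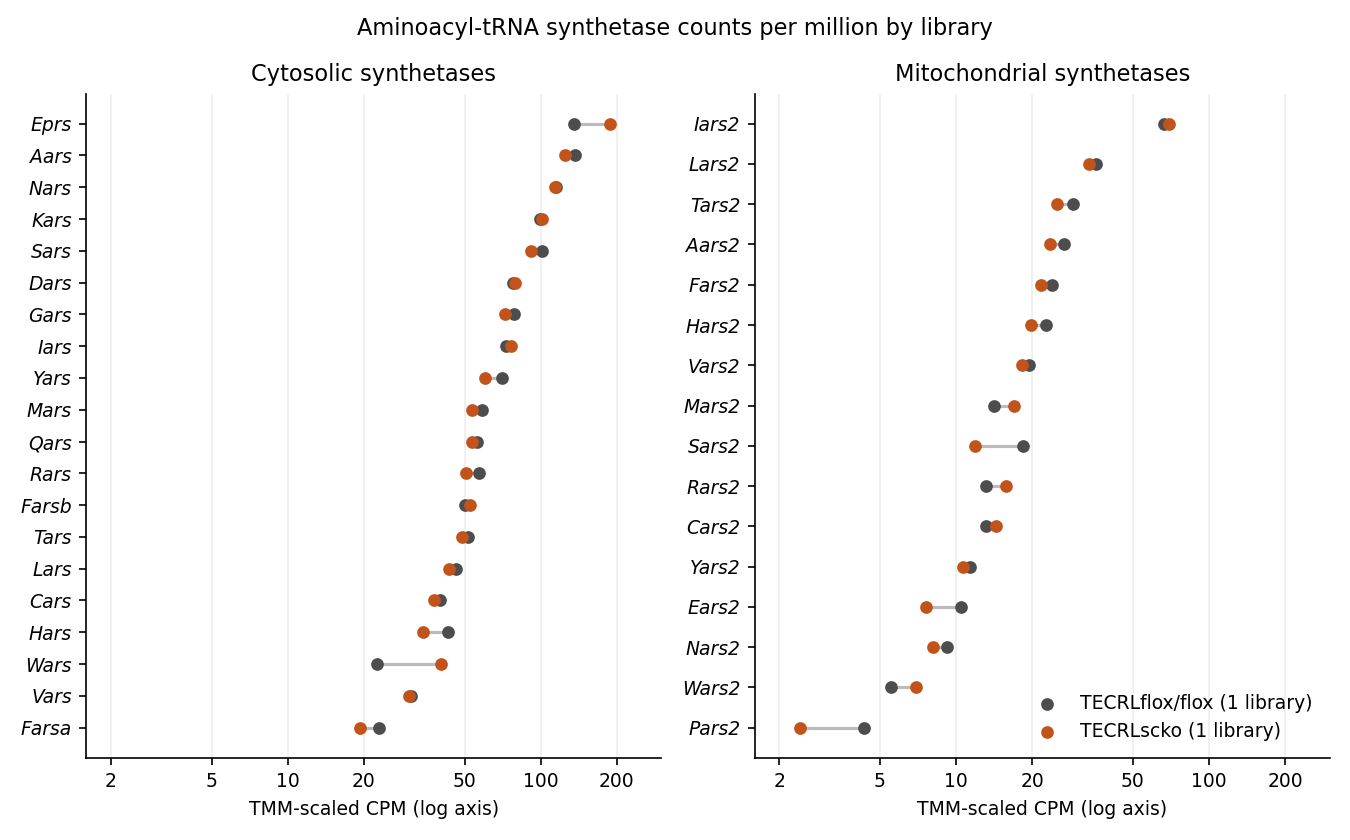
TMM-scaled CPM of each synthetase (log axis) in the control library (grey) and the scko library (orange), 1 point per library, cytosolic enzymes at the left and mitochondrial enzymes at the right. The points of most genes nearly coincide, and Wars, Eprs, Pars2 and Sars2 stand out, Wars with 22.4 CPM in the control library and 40.2 CPM in the scko library.

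Among the cytosolic enzymes, 14 of 20 were below the control and 6 above it, with a median log2 ratio of -0.08. Their summed level was 1367 CPM in the control library and 1370 CPM in the scko library, a ratio of 1.002 (0.985 to 1.02). The range ran from -0.33 to 0.83, and 1 enzyme reached 1.5-fold higher, none lower.

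That enzyme was Wars, the tryptophanyl-tRNA synthetase (ENSMUSG00000021266, chromosome 12, 108860030 to 108894174, GRCm38), also known as an interferon-inducible gene. Wars had 443 counts in the control and 666 counts in the scko library. At 22.4 CPM against 40.2 CPM it was 1.79-fold higher (1.59 to 2.03), and the next highest ratio of a synthetase was 1.38. After the length and GC correction its log2 ratio was 0.95. Interferon-induced genes, a list of 20 chosen after the value of Wars had been seen, had a median log2 ratio of -0.07. Above the control were 9 and below it 11, from -0.56 to 0.75. Gbp7 (0.75, or 0.35 after the length and GC correction) was the 1 gene at least 1.5-fold higher (9.24% of all genes were). None was at least 1.5-fold lower on the log2 ratio of CPM plus 0.5 (3.88% of all genes were). By the plain CPM ratio Igtp, the lowest of the 20 at -0.56, was 1.505-fold lower. A link of Wars to interferon was not tested.

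Eprs (ENSMUSG00000026615, chromosome 1, 185363044 to 185428360), which carries the glutamyl and the prolyl enzyme in 1 protein of the complex, was next. It had 2681 counts in the control and 3100 counts in the scko library, or 136 CPM against 187 CPM. The ratio of 1.38 (1.31 to 1.45) was the second highest of the cytosolic enzymes. Its log2 ratio of 0.46 came to 0.15 after the length and GC correction, its longest transcript being 5638 bases at 44.0% GC. Farsb, the beta subunit of the phenylalanyl enzyme, followed at 0.07, on 988 and 873 counts. The counting interval of its ratio, 0.961 to 1.16, includes 1. Farsa, the alpha subunit of the same enzyme, stood at -0.25 on 454 and 319 counts, with an interval of 0.724 to 0.969. The point values of the subunits of 1 enzyme thus lay on either side of the control, for Farsb within counting error.

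At the lower end, Hars, the histidyl enzyme (chromosome 18, 36766530 to 36783205), had 849 counts in the control and 565 in the scko library. It was 1.26-fold lower (1.13 to 1.40) at 43.0 CPM against 34.1 CPM. Hars overlaps Hars2, its mitochondrial counterpart on the other strand, by 198 bases, and without a stated strand setting reads of that stretch cannot be assigned. Hars2 was 1.16-fold lower, on 449 and 326 counts, with an interval of 0.999 to 1.34 that includes no difference. Yars, the tyrosyl enzyme, was 1.17-fold lower (1.07 to 1.27) on 1386 and 997 counts. The counting interval lay below a ratio of 1 for 6 cytosolic enzymes, Hars, Farsa, Yars, Rars, Sars and Aars, and above it for Eprs and Wars.

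The remaining cytosolic enzymes lay closer to the control. Aars, the alanyl enzyme, had 2702 counts in the control and 2063 in the scko library, a ratio of 0.910 (0.859 to 0.964). The seryl enzyme Sars, on 2005 and 1509 counts, and the arginyl enzyme Rars, on 1130 and 839 counts, had ratios of 0.897 and 0.885. These 3 differences were beyond counting error but small, and a spread between animals could not be set beside them. Mars, Cars, Tars, Lars, Qars and Vars, which charge methionine, cysteine, threonine, leucine, glutamine and valine, had log2 ratios from -0.12 to -0.04. Dars and Iars, the aspartyl and isoleucyl enzymes, stood at 0.02 and 0.07, and the counting intervals of all 8 include 1. Of the 36 members 10 overlap another counted gene model, Mars among them, which overlaps Ddit3.

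**Figure D2:**
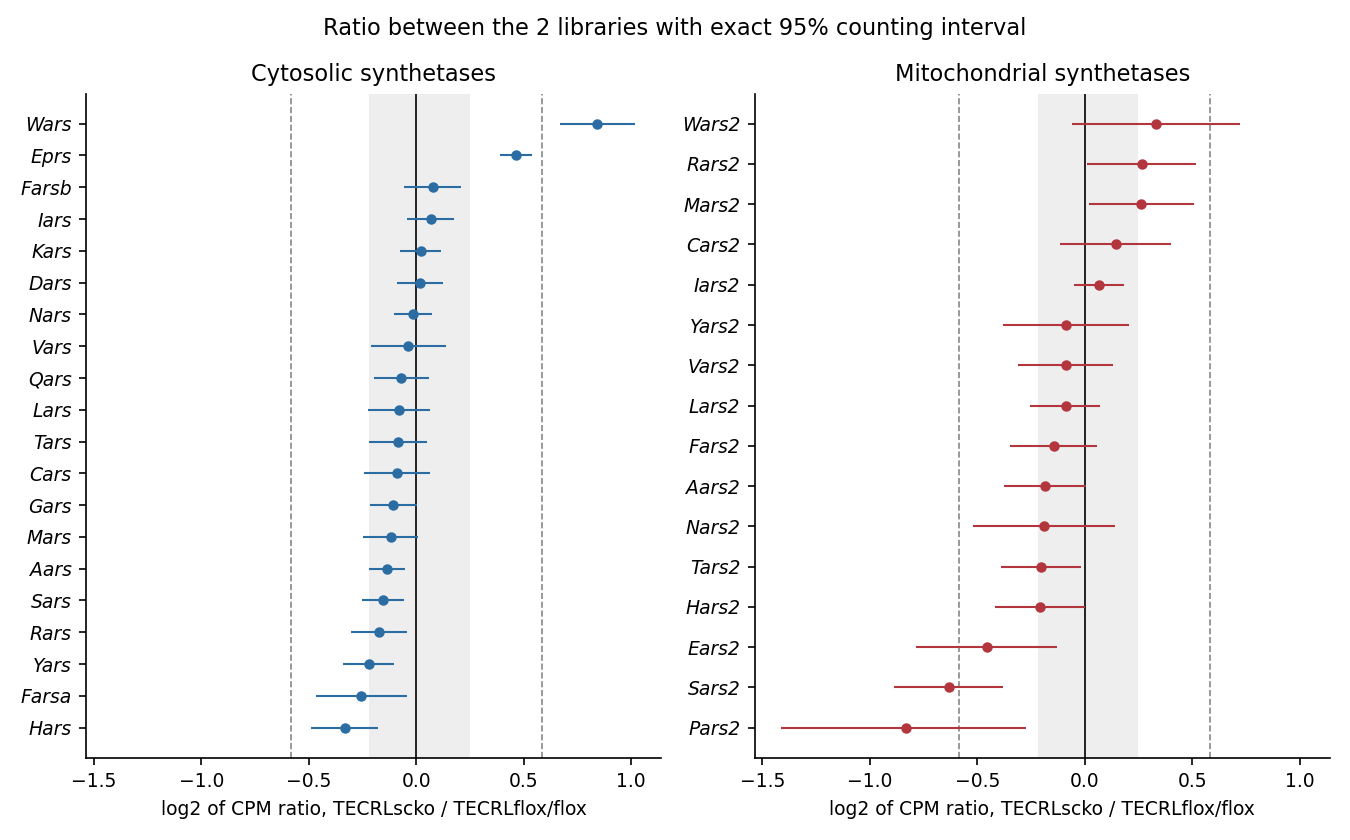
Ratio of TECRLscko to control CPM of each synthetase on a log2 axis, without a pseudocount, with its exact 95% counting interval; the grey band spans the quartiles of the log2 ratio over all genes compared and dashed lines mark 1.5-fold. Wars is the only gene whose interval lies entirely to the right of the 1.5-fold line, and on the lower side no interval lies entirely beyond the line.

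The highest levels per length belonged to the asparaginyl enzyme Nars and the lysyl enzyme Kars, and these hardly differed. Nars stood at an FPKM of 44.9 in the control and 42.4 in the scko library, and its CPM were 115 and 114. Kars stood at an FPKM of 38.6 and 37.3, and Gars, the glycyl enzyme, at 21.9 and 19.4. Kars and Gars, the genes that supply both compartments, had log2 ratios of 0.02 and -0.11, both with a counting interval that includes 1. The deposited FPKM implies a gene length that was up to 4.45 times the longest transcript of a synthetase. Per kilobase of the longest annotated transcript the order at the top was the same for these genes in the control: 42.0 CPM for Nars and 41.2 CPM for Kars, with the aspartyl enzyme Dars at 35.9 CPM between Kars and Gars, at 32.8 CPM.

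By place in the cell, the 8 enzymes of the multi-synthetase complex had a median log2 ratio of -0.03, with 4 above and 4 below the control. The 12 free cytosolic enzymes had a median of -0.10, with 2 above and 10 below. The median of the complex was 0.01 with median-centred FPKM and 0.02 without genes that overlap another model. The scaffold proteins of the complex were all below the control. Aimp2 had 4338 counts in the control and 2258 in the scko library and was 1.61-fold lower (log2 ratio -0.69), Eef1e1 stood at -0.31 and Aimp1 at -0.07. After the length and GC correction these 3 came to -0.45, -0.36 and -0.50, none at 1.5-fold.

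By catalytic fold, 11 of 18 class I enzymes were below the control and 14 of 17 class II enzymes, Eprs, which holds both folds, being left out. The medians were -0.07 and -0.16, and -0.03 and -0.17 after the correction. With genes as the only units, no test of this difference was made.

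Among the mitochondrial enzymes, 11 of 16 were below the control and 5 above it, with a median log2 ratio of -0.12. The median was 0.03 lower than that of the cytosolic enzymes, a difference that ran from -0.00295 without the most deviating members to -0.10 after the length correction. Their summed level was 323 CPM in the control library and 306 CPM in the scko library, a ratio of 0.946 (0.912 to 0.982). None was at least 1.5-fold higher and 2 were at least 1.5-fold lower.

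Pars2, the mitochondrial prolyl enzyme (ENSMUSG00000043572, chromosome 4, 106651069 to 106655282), had the lowest log2 ratio and the lowest CPM of all 36. It had 85 counts in the control and 40 counts in the scko library, 4.31 CPM against 2.42 CPM. This was 1.78-fold lower (1.21 to 2.66), a wide interval at this depth. Its log2 ratio was -0.72, and -0.63 after the length and GC correction. Sars2, the mitochondrial seryl enzyme (ENSMUSG00000070699, chromosome 7, 28741968 to 28753879), had 364 counts in the control and 197 in the scko library. At 18.4 CPM against 11.9 CPM it was 1.55-fold lower (1.299 to 1.85). Its transcript is short and rich in GC, 1868 bases at 60.1%, and its log2 ratio of -0.61 came to -0.36 after the correction, inside 1.5-fold. Ears2, the mitochondrial glutamyl enzyme (ENSMUSG00000030871, chromosome 7, 122037213 to 122067263), had 206 and 126 counts, 10.4 CPM against 7.61 CPM. It was 1.37-fold lower (1.09 to 1.73), and it overlaps Ubfd1, a gene on the other strand.

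The highest ratios among the mitochondrial enzymes belonged to Wars2, Rars2 and Mars2, which charge tRNAs for tryptophan, arginine and methionine. Wars2 had 109 counts in the control and 115 in the scko library, a ratio of 1.26 whose interval of 0.960 to 1.65 includes 1. Rars2 had 259 and 261 counts, a ratio of 1.20 (1.01 to 1.43). Mars2 had 278 and 280 counts and the same ratio of 1.20 (1.01 to 1.42), and its log2 ratio of 0.26 turned to -0.53 after the correction. Mars2 has the longest transcript of the family, 11294 bases at 38.8% GC, so its direction depends on that correction. Between these extremes, the abundant Iars2, the isoleucyl enzyme, had 66.4 CPM in the control library and 69.5 CPM in the scko library. Lars2, the leucyl enzyme, stood at 35.7 and 33.5 CPM and Fars2, the phenylalanyl enzyme, at 23.9 and 21.6 CPM. Per length Fars2 was the highest mitochondrial enzyme by deposited FPKM, at 11.5 and 9.94, followed in the control by Sars2 at 9.88 (6.09 in the scko library) and Lars2 at 9.41 (8.44 in the scko library). The order depends on the length used: per kilobase of the longest transcript Iars2 was the highest, at 12.1 and 12.7 CPM, and Fars2 stood at 7.10 and 6.42 CPM. The other 7 mitochondrial enzymes, Aars2, Cars2, Nars2, Tars2, Vars2, Yars2 and Hars2, had log2 ratios from -0.20 to 0.14, and of the 16 only Tars2, Ears2, Sars2 and Pars2 had a counting interval below 1.

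For 13 amino acids the cytosolic and the mitochondrial enzyme come from a pair of genes with matching names. The mitochondrial enzyme was the lower one in 12 of the 13 pairs by deposited FPKM and in 13 of 13 per kilobase of the longest transcript, in both libraries. In the control its level per kilobase ran from 5.80% of the cytosolic one for Nars2 to 79.2% for Lars2, with a median of 33.5%. The per-kilobase median in the scko library was 34.4%. By deposited FPKM the medians were 24.7% in the control and 33.5% in the scko library, both the value of Rars2 over Rars. Without correction, the ratio within a pair differed between the libraries by less than 1.5-fold in all 13 pairs. It was lower in the scko library for Wars2 over Wars (1.42-fold, 1.06 to 1.92) and Sars2 over Sars (1.39-fold, 1.15 to 1.68). It was higher for Rars2 over Rars (1.36-fold, 1.11 to 1.66) and Mars2 over Mars (1.31-fold, 1.08 to 1.58), and the other 9 intervals include 1. With the corrected log2 ratios, a comparison chosen after the data had been seen, Wars2 over Wars was 1.71-fold lower, the 1 pair of 13 then past 1.5-fold, and Mars2 over Mars turned to 1.43-fold lower. The direction turned in 6 of the 13 pairs, while Rars2 over Rars remained 1.31-fold higher and Sars2 over Sars 1.20-fold lower. In 10 of the 13 pairs both enzymes lay on the same side of the control.

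Glutamate and proline, whose cytosolic enzymes are fused in Eprs, showed the widest uncorrected gaps between compartments, in a comparison chosen after the values had been seen. The ratio of Pars2 to Eprs was 2.46-fold lower in the scko library (1.66 to 3.69) and that of Ears2 to Eprs 1.89-fold lower (1.498 to 2.39). After the length and GC correction these were 1.72-fold and 1.58-fold, beside 1.71-fold for Wars2 over Wars. In both the cytosolic gene was above the control and the mitochondrial gene below it.

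**Figure D3:**
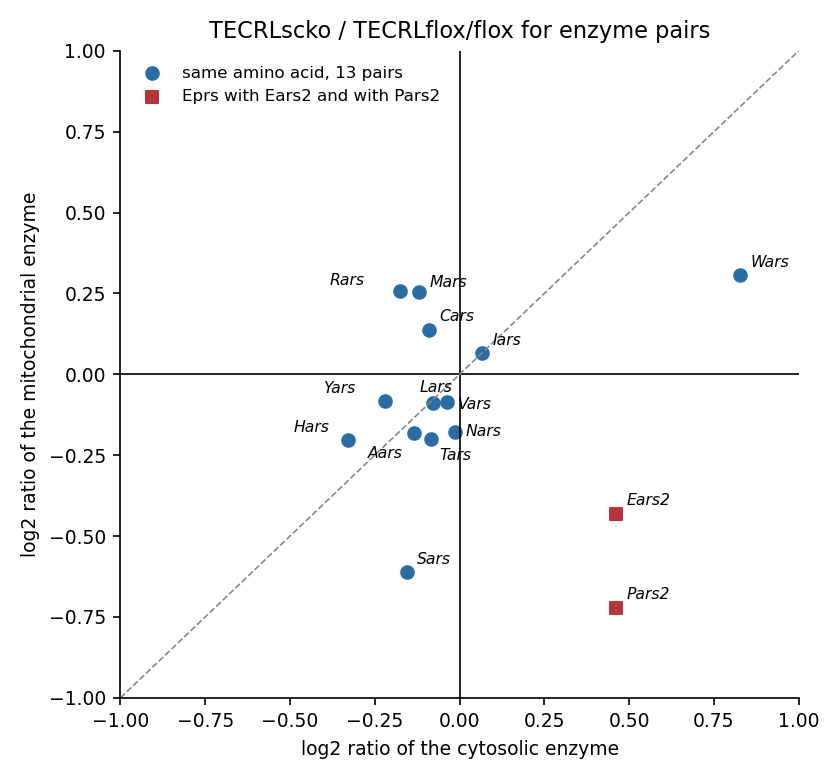
Log2 ratio, TECRLscko over control, of the cytosolic enzyme (horizontal axis) and the mitochondrial enzyme (vertical axis) for the same amino acid, 1 point per pair; pairs are labelled by the cytosolic gene and the red squares by the mitochondrial partner of Eprs. Points on the dashed line have equal ratios in both compartments; most pairs lie near the centre, Wars far to the right at 0.83 and Pars2 and Ears2 at the lower right.

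Transcript length and GC content moved with the log2 ratio over all genes and are therefore given for the family. Over 12524 genes the Spearman correlation of log2 ratio was 0.40 with the length of the longest transcript and -0.43 with its GC content; over the 36 synthetases it was 0.15 and -0.45, and over the 16 mitochondrial enzymes 0.25 and -0.61. Genes share the 2 libraries and are no replicates, so these values only describe. The median transcript was 3066 bases for cytosolic and 3490 bases for mitochondrial enzymes, against 3422 bases for all genes, and the median GC content was 49.8% in the cytosolic and 49.3% in the mitochondrial enzymes and 49.8% in all genes. After the correction the cytosolic median came to -0.02 and the mitochondrial median to -0.11. At least 1.5-fold higher was then Wars (4.44% of all genes were) and at least 1.5-fold lower Pars2 (3.87% of all genes were).

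**Figure D4:**
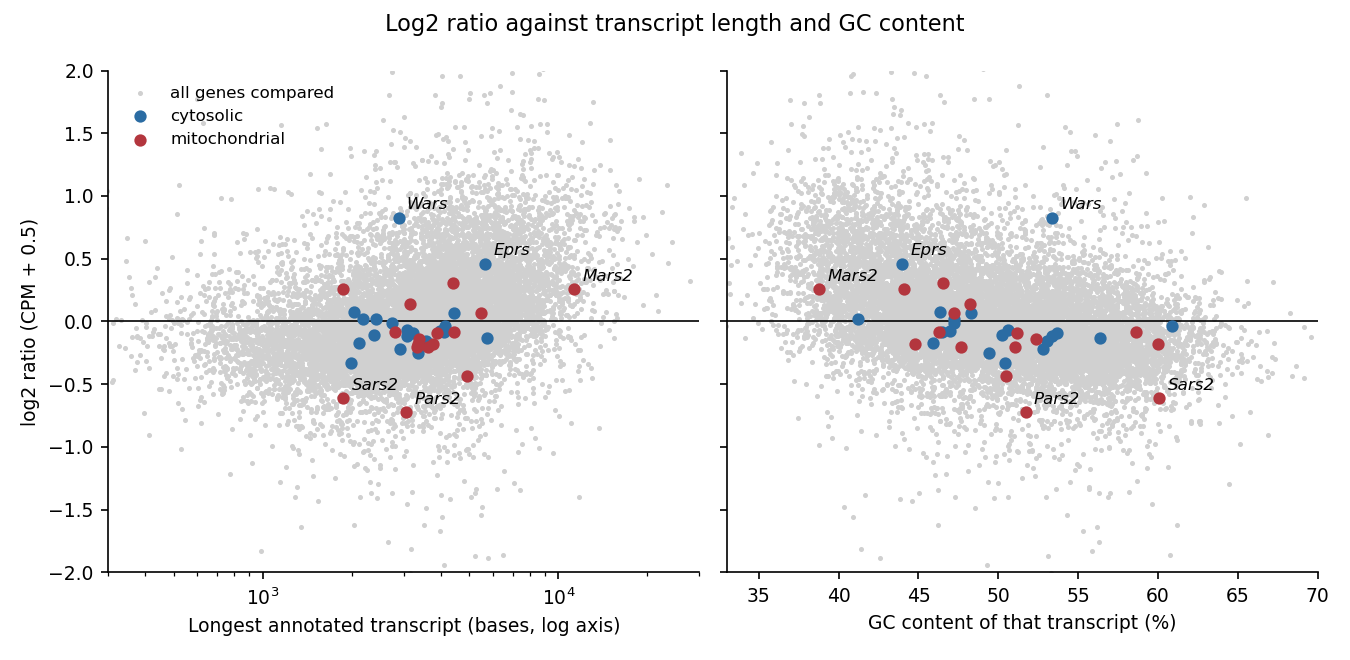
Log2 ratio, TECRLscko over control, against the length of the longest annotated transcript (left, log axis) and its GC content (right) for all genes compared (grey), cytosolic synthetases (blue) and mitochondrial synthetases (red); genes beyond the axis limits are not drawn. Long, GC-poor transcripts lie higher in the cloud, Eprs and Mars2 lie on its long, GC-poor side and Sars2 on its short, GC-rich side, whereas Wars, at 0.83, lies in the upper part of the cloud at its length and GC content.

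Before correction the amino acid response genes had the same median as the synthetases, with Chac1 far above the others. Of 31 genes in that list 27 were compared, with a median log2 ratio of -0.09. After the length and GC correction it was 0.03, against -0.08 for the synthetases. Within 0.32 of 0 were 20 of 27 (64.7% of all genes were). At least 1.5-fold higher was 1 (9.24% of all genes were) and at least 1.5-fold lower were 2 (3.88% of all genes were). Chac1 had 1141 counts in the control and 2870 in the scko library, 57.8 CPM against 173 CPM, a ratio of 2.999 (2.80 to 3.21). Asns, the asparagine synthetase that is a classical target of this response, had 38 and 33 counts, a ratio of 1.04 (0.629 to 1.70). Atf4 itself had 4962 and 3682 counts and a log2 ratio of -0.18, and Ddit3, the stress factor CHOP whose gene overlaps Mars, had 226 and 215 counts and one of 0.17. The most abundant members, the alanine aminotransferase Gpt2 and the lipoprotein receptor Vldlr, stood at -0.20 and 0.53, the latter at 0.07 after the length and GC correction. The genes at least 1.5-fold lower were Pycr1, of proline synthesis, at -0.68 and the stress-induced Nupr1 at -0.62, which came to -0.56 and -0.50, inside 1.5-fold, after the length and GC correction. The 5 synthetases whose promoters hold TGATGNAA had log2 ratios from -0.22 for Yars to 0.07 for Iars, with a median of -0.11, and the 8 other cytosolic genes with a promoter window had a median of -0.03. Wars and Hars, the cytosolic enzymes with the highest and the lowest log2 ratio, had no matched window and were not searched. In the amino acid response list 9 of 28 genes with a window held the letters, among them Chac1 at 1.58, Asns at 0.04 and Pycr1 at -0.68. Among the eIF2 alpha kinases that start this response, Eif2ak2, the kinase activated by double-stranded RNA, was 2.03-fold higher (1.47 to 2.84) on 61 and 104 counts, and Eif2ak4, the sensor of uncharged tRNA, stood at 0.08. The most abundant of the 4 kinases, the heme-regulated Eif2ak1, stood at -0.24 and the endoplasmic reticulum kinase Eif2ak3 at 0.05.

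Partners of the mitochondrial enzymes lay on both sides of the control. The 4 genes of the amidotransferase (Qrsl1, Gatb and Gatc) and of methionyl-tRNA formylation (Mtfmt) were all below the control, from -0.07 for Gatc to -0.27 for Mtfmt. The counting intervals of all 4 include 1. After the length and GC correction Gatc came to 0.08 and the others stayed below 0. Of 9 mitochondrial translation factors 5 were above the control, with the initiation factor Mtif2 1.52-fold higher at 0.59 (400 and 509 counts) and the elongation factor Tufm at -0.55 (1857 and 1062 counts). After the length and GC correction these came to 0.53 and -0.31. The translocases Gfm1 and Gfm2 stood at 0.04 and -0.03. None of 9 mitochondrial tRNA processing genes reached 1.5-fold. The most abundant of these were Hsd17b10, a subunit of mitochondrial RNase P, at 0.02, the tRNA wobble-base modifier Mto1 at -0.21 and the tRNA 3′ endonuclease Elac2 at 0.22.

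On the cytosolic side, none of 6 elongation factors and none of 8 editing and other tRNA enzymes reached 1.5-fold. Eef1a2, the muscle and neuron form of the factor that brings charged tRNA to the ribosome, had 33178 counts in the control and 24027 in the scko library and a log2 ratio of -0.21, or 0.02 after the length and GC correction. Its broadly expressed counterpart Eef1a1 stood at -0.11 and the translocase Eef2 at -0.06. Tarsl2, a second cytosolic threonyl enzyme, stood at 0.07, the tRNA exporter Xpot at 0.25 and the alanyl editing enzyme Aarsd1 at -0.16.

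The mitochondrially encoded mRNAs that the mitochondrial synthetases serve were above the control in 13 of 13 genes (48.2% of all genes were). They had a median log2 ratio of 0.70, or 0.47 after the correction, against -0.12 and -0.11 for the mitochondrial synthetases. At least 1.5-fold higher were 10 of the 13 (9.24% of all genes were), and 3 after the correction (4.44% of all genes were). Their most abundant members, mt-Co1, mt-Co3 and mt-Cytb, stood at 0.33, 0.24 and 0.67. Whether the levels of these lists are linked was not tested.

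**Figure D5:**
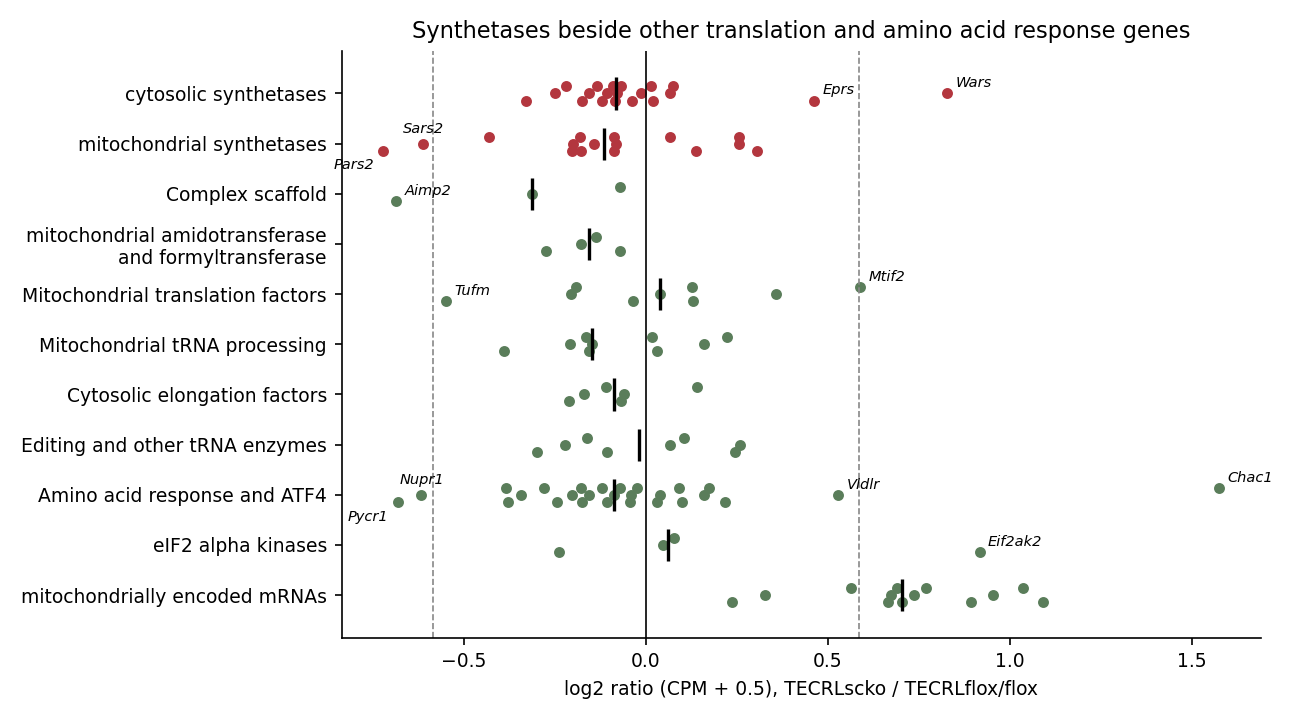
Log2 ratio, TECRLscko over control, of single genes (points) and the median of each list (black bars) for the synthetases (red) and for other genes of translation, the amino acid response and the mitochondrial genome (green); dashed lines mark 1.5-fold. Most points lie between the dashed lines. Chac1 at 1.58 and 10 of the 13 mitochondrially encoded mRNAs lie beyond the line on the higher side (9.24% of all genes did). After the length and GC correction 3 of these mRNAs did, against 4.44% of all genes.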

How the data were processed

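Total RNA of gastrocnemius was sequenced as 1 library in each of 2 groups. The submitters' processing notes name StringTie 1.3.0, HISAT2 2.0.4, CASAVA and the build GRCm38, without their roles. No counter, strand setting or annotation release is given in the sources used here. The authors deposited raw counts and FPKM per gene. The deposited FPKM values equal counts divided by a gene length that was the same in both libraries, within 1% for 16041 of 16041 genes, and by the library total.

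Counts were scaled with edgeR 4.0.16 TMM factors (R 4.3.3). Log2 ratios used CPM plus 0.5, which understates low genes, and single folds are plain CPM ratios with exact 95% Clopper-Pearson intervals. Intervals, Wilson intervals of shares included, cover counting error only. The comparison took genes whose mean reached 1 CPM, with 1.5-fold as the size rule, applied to the log2 ratio of CPM plus 0.5. The correction for length and GC content is a lowess fit (span 0.3, statsmodels 0.14.6) over 12524 genes on the longest GENCODE M21 transcript. In each compartment the 3 highest and 3 lowest log2 ratios, the 3 highest FPKM and the members past 1.5-fold were described singly. From other lists the genes past 1.5-fold and the most abundant were described. Asns, Ddit3 and Mtfmt were named after their values were seen. Alternatives included DESeq2 1.42.0 size factors. The steps were tested on simulated data. Members, lists and tests were chosen with earlier results of these data known.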

Additional observations from a re-analysis of the deposited data

How the results depend on the processing

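No paired analysis was possible because there was 1 library a group, and no replicate could be left out either. Under 11 alternatives Wars was at least 1.5-fold higher in each, with log2 ratios from 0.72 to 0.95, and the cytosolic and mitochondrial medians stayed below 0, from -0.15 to -0.02 and from -0.18 to -0.05. The sign of the log2 ratio of Dars, Gars, Iars, Iars2, Kars, Mars2, Nars, Qars and Vars, all inside 1.5-fold, differed between settings. Of 379 values of single synthetases under these settings 12 moved beyond their counting interval, 11 of them under the 2 trend corrections. The 2 mitochondrial enzymes at least 1.5-fold lower became 1 with FPKM and with a 5 CPM filter (Pars2 fell under the filter), 1 after the length correction and 1 after the length and GC correction (Sars2 at -0.48 and -0.36), 0 with median-centred FPKM (Sars2 at -0.56) and 0 under a 2-fold rule. The 1 cytosolic enzyme higher became 0 under the 2-fold rule and 2 under a rule of 0.32 on the log2 scale, where 0 lower became 1 (Hars).

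Over all genes, FPKM, which left 9503 genes compared, gave 392 and its median-centred form 600 genes past 1.5-fold on the higher side, and the length and GC correction 556, in place of 1161. On the lower side 487 became 199 (centred FPKM), 753 (no filter) and 276 (5 CPM filter). Past 2-fold, 286 higher became 68 (FPKM), 107 (centred FPKM), 190 (length), 138 (length and GC) and 180 (no overlapping models), and 100 lower became 56 (FPKM), 46 (centred FPKM), 65 (5 CPM filter) and 60 (no overlapping models). In the lists of translation and amino acid response genes together, without the interferon-induced and mitochondrially encoded genes, 3 genes higher became 1 with FPKM, centred or not, and 3 lower became 1 with centred FPKM, 1 after the length correction and 0 after both. The median of the cytosolic elongation factors, -0.09, became -0.16 with total counts, -0.15 with FPKM, -0.00218 and 0.0197 after the corrections, and that of the scaffold proteins, -0.31, became -0.45 after both. Of 13 pairs 0 differed by 1.5-fold and 1 after the length and GC correction, an alternative chosen after seeing the data. The median mitochondrial share of a pair was 24.7% by FPKM and 33.5% per kilobase in the control, and 33.5% and 34.4% in the scko library. Summed cytosolic levels of 1367 and 1370 CPM became 1399.6 and 1338 CPM with total counts, and 1231 and 1183 CPM without Eprs; the mitochondrial 323 and 306 CPM became 257 and 236 CPM without Iars2. Beyond filters and membership, the cause was not tested. Depth limits Pars2 and Wars2.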
